A study of Apis mellifera with 20 samples.

Results

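The libraries described here are the m6A pulldown (IP) and the input of worker honeybee (Apis mellifera) larvae of instar 3 (L3), 2 of each, and were chosen by their labels. They are 4 of the 20 libraries of a series on mRNA methylation in larvae of 3 instars and both female castes. The IP group is 3W_R1_IP and 3W_R2_IP, made from poly(A) RNA fragments of L3 worker larvae that an m6A antibody had bound. The input group is 3W_R1_input and 3W_R2_input, fragmented poly(A) RNA of such larvae that did not go through the antibody step. L3 queens (3Q) and instar 1 larvae (L1, named 1D), which can still become either caste, have 2 IP and 2 input libraries each and serve below to show where workers differ. Instar 5 (L5) queens (5Q) and workers (5W) are given as values. All larvae came from colonies kept by standard beekeeping at 1 institute. The labels name no age in days, no colony and no number of larvae per library, so p-values measure the spread between these libraries, which may be technical.

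N6-methyladenosine (m6A) is a methyl group that a methyltransferase complex built around METTL3 and METTL14 places on adenosines within messenger RNA, and that proteins with a YTH domain bind. In other animals it is known to alter the splicing, export, translation and decay of transcripts. In mammals it is densest near stop codons and in long internal exons. The antibody retains fragments that carry the mark, so a transcript that is more abundant in IP than in input is read as enriched by the pulldown. Worker and queen honeybees arise from alike eggs, and L3 lies in the period when larval diet sets the caste.

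The deposited values are FPKM, a read density that is scaled by model length and by library size, for 15314 gene models on 1653 scaffolds. One value covers a whole model, so single methylated sites cannot be seen. No library is a pulldown without the m6A antibody, so the IP to input difference is not a measured methylation level. None of the 15314 model IDs matched the RefSeq table of 12398 genes, and the files pair the IDs with no names. Models are therefore given by ID and position, without roles, and the labelled tissue could not be checked against marker genes. The genome build is not given in the sources used here, and positions are those of the files.

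The summed FPKM was 891050 and 841637 in the 2 IP libraries, against 653962 and 662785 in the input libraries. A single model, GB43330 (described below), held 47.7% and 42.7% of the IP sums, against 12.4% and 11% of the input sums. Without that model the IP sums lie below the input sums. The IP libraries held 8973 and 8994 models above 1 FPKM, and the input libraries 9335 and 9438. Read depth is unknown. Of the 15314 models, 9385 had a mean scaled FPKM of at least 1 and were tested, 2528 were listed at 0 in all 4 libraries, and 3401 were detected but fell under the filter. Of those tested, 24.8% overlap another model, and since the library kit does not mark strand their values are uncertain. Replicates lay close together: across the tested models Pearson's r was 0.990 between the IP libraries and 0.990 between the input libraries, but 0.830 to 0.846 between IP and input. The points of these correlations are gene models of the same libraries, which are not independent.

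The relative level of most models differed between IP and input, and after median-of-ratios scaling about as many were higher as lower. At an adjusted p under 0.05 (limma, Benjamini-Hochberg), 71.5% of the tested models differed between IP and input. Higher in IP were 3343 models (35.6%), and lower were 3364 (35.8%). The higher group held 1781 models (19%) at 2-fold or more, 570 (6.07%) at 4-fold or more and 147 (1.57%) at 8-fold or more. The lower group held 1191 (12.7%), 52 (0.554%) and 2 (0.0213%) at the same thresholds. These counts by fold are not symmetric by construction. They include the 365 models under 1 FPKM in the worker input, of which 58.1% were called 2-fold higher and 0% 2-fold lower, and on the log2(FPKM + 1) scale a model with a scaled input under 3 FPKM cannot be 4-fold lower. With a pseudocount of 0.1, 2029 models were higher and 1657 lower at 2-fold or more. Both IP libraries lay above both input libraries in 42.6% of the tested models and below them in 44.8%, and the groups overlapped in 12.6%.

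The log2 difference, IP minus input of log2(scaled FPKM + 1), had a median of -0.04, quartiles of -0.65 and 0.74, and 5th and 95th percentiles of -1.36 and 2.14. Its median standard error was 0.12 (n = 2 and 2). When each IP library was set against the input library of the same number, a pairing on which the labels are silent, 92.6% of the models had the same sign in both. Direction is relative to the typical model. On FPKM left unscaled, as deposited, all models had a median of -0.29, and 2623 models were higher and 4362 lower. At 2-fold or more the order of the counts then turned round, with 1364 higher and 1936 lower. With upper-quartile scaling the median was -0.37, with 2434 higher and 4641 lower, and 1242 and 2197 at 2-fold or more.

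**Figure D1:**
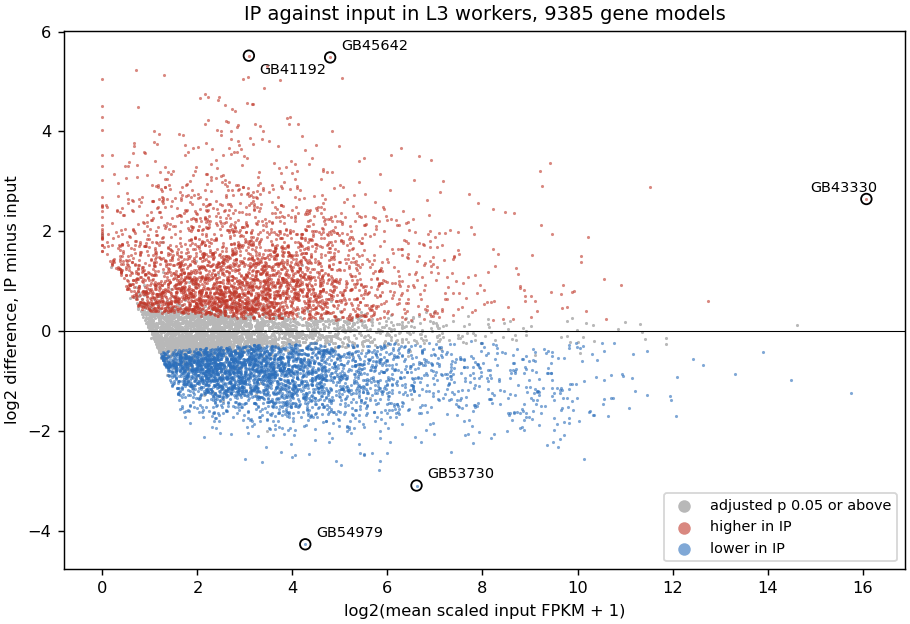
Log2 difference between IP and input (y axis) against the log2 of the mean scaled input FPKM plus 1 (x axis) for the 9385 tested models of L3 workers. Red models were higher in IP, blue ones lower and grey ones not past an adjusted p of 0.05 (limma), and the sloping left edge is the filter on the mean of the 4 libraries. The higher models reach 5.52, and 5 models named in the text are circled. The lowest of them, GB54979, is listed at 0 in IP, so its height on the plot depends on the pseudocount.

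The model with the highest log2 difference was GB41192 (Group15.3, 256075 to 256931, minus strand). It had 350 and 345 FPKM in the IP libraries, against 7.27 and 9.34 FPKM in the input libraries. GB45642 lies on the minus strand of Group5.20, between 508205 and 508890. Its values were 1119 and 1109 FPKM in IP, against 26.9 and 32.5 FPKM in input. In both models the 2 IP values lay close together and far above the input values. The log2 differences were 5.52 ± 0.11 for GB41192 and 5.48 ± 0.10 for GB45642 (SE, n = 2 and 2, limma adjusted p = 8.74e-06 for each).

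Both of these models were also enriched outside the workers. GB41192 had a log2 difference of 5.25 in L3 queens and 5.84 in L1 larvae, and GB45642 had 5.46 in each, in fits of each kind of larvae alone. At L5 the values were lower in these fits: 2.27 and 2.35 in workers and 1.15 and 1.16 in queens for GB41192 and GB45642 in turn, of which none passed the threshold (limma adjusted p between 0.183 and 0.553). The change between instars was not tested for them.

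At the other end, GB54979 (Group1.41, 75936 to 76859, plus strand, overlapping another model) was listed at 0 in both IP libraries, against 19.2 and 21.4 FPKM in the input libraries. No fold is given, because an exact 0 may stand for an estimate that failed, although the model passed the test (limma adjusted p = 1.13e-05). GB53730 lies on the plus strand of Group3.9, between 1195806 and 1196058. It was at 6.61 and 13.4 FPKM in IP, against 106 and 109 FPKM in input. Its IP values lay far below both input values and were less alike than the input values. The log2 difference was -3.09 ± 0.28 (SE, n = 2 and 2, limma adjusted p = 2.68e-04), and it was -2.30 in L3 queens and -2.95 in L1 larvae.

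One short model carried a large part of the summed FPKM and is named because of its values. FPKM divides by model length, so a share of the summed FPKM is not a share of the reads. GB43330 (GroupUn98, 15844 to 16065, plus strand) had 424655 and 359694 FPKM in IP, against 81045 and 72678 FPKM in input. These values are 47.7% and 42.7% of the summed FPKM in the IP libraries, against 12.4% and 11% in the input libraries. Its log2 difference was 2.65 ± 0.15 (SE, n = 2 and 2, limma adjusted p = 5.63e-05). The IP shares were 34.5% to 38.0% in L1 larvae and L3 queens. At L5, over both castes, the shares were only 0.631% to 0.781% in IP and 0.128% to 0.33% in input. Fitted alone, the log2 difference of GB43330 was 2.69 in L1 larvae and 2.52 in L3 queens. It was 1.79 in L5 workers and 1.61 in L5 queens, neither past the threshold (limma adjusted p = 0.147 and 0.414). The change between instars was not tested. The model spans 222 bp, and the FPKM of a model that short can depend on how the unnamed counting program treated fragment length, which was not tested.

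Without GB43330, the rest of the 10 most abundant models held 23.8% and 23.7% of the remaining FPKM in IP, against 30% and 28.2% in input. By the mean of the 2 libraries, 7 of the 10 most abundant models and 65 of the 100 most abundant were the same in IP and input.

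**Figure D2:**
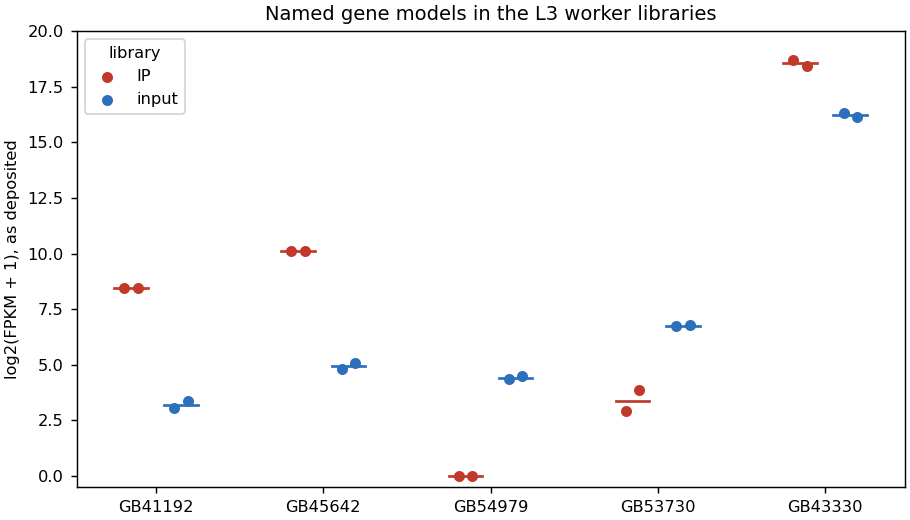
Values of 5 gene models in the 4 libraries of L3 workers, as log2(FPKM + 1) with FPKM as deposited. Each point is a library, IP in red on the left and input in blue on the right, and the bar is the mean of 2. In GB41192, GB45642 and GB43330 both IP points lie above both input points, in GB53730 both lie below, and in GB54979 both IP points are at 0.

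Enrichment differed between classes of models by their level. The 281 models at 256 FPKM or above in the worker input had a median log2 difference of -0.76, and 17.8% of them were higher and 68.7% lower in IP. Of the 1736 models at 16 to 64 FPKM, 38.1% were higher and 44.2% lower, with a median of -0.11. Because the worker input is also the divisor of the ratio, the models were classed again by the input of L3 queens, which is no part of it. The median was then -0.61 for the 358 models at 256 FPKM or above, -0.33 for the 877 at 64 to 256, -0.09 for the 2738 at 16 to 64, -0.08 for the 3747 at 4 to 16 and 0.20 for the 1382 at 1 to 4 FPKM. Models under 1 FPKM in the worker input passed the filter only through a higher IP value, so the 81.4% of them that were higher is no result. Classing by queen input does not remove this filter. It left 283 models under 1 FPKM, against 365 by worker input, so some of the 365 lie in the other classes. The part of such models in the medians by queen input was not tested. All medians by class are descriptions, since gene models are not replicates.

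Among non-overlapping models that share a scaffold with another model, those farther from their neighbour had higher medians. The 2682 models whose nearest neighbour lies within 500 bp had a median log2 difference of -0.19, with 29.6% higher and 42.2% lower in IP. The 2688 models at 500 bp to 2 kb had a median of 0.01, and the 1141 models at 2 to 10 kb one of 0.36. The 307 models whose nearest neighbour lies 10 kb or more away had a median of 0.67, with 59% higher and 12.7% lower. The 239 models alone on their scaffold, which have no neighbour to measure from, went the other way, with a median of -0.30, 28% higher and 41% lower. For the class at 10 kb and over the medians were 0.70 and 0.63 when each IP library was set against the mean input. The gap between classes was thus wider than that between the IP libraries. Both values share the mean input, so the spread between input libraries is not part of them. The classes by distance were not split by level and were not run without the filter.

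The order held within some classes of span and not in others. Within models spanning 1 to 4 kb, the medians were -0.29 with a neighbour within 500 bp (1487 models), -0.18 at 500 bp to 2 kb (1300 models), 0.17 at 2 to 10 kb (363 models) and 0.70 at 10 kb and over (70 models). In the same models 25.3% were higher in IP in the nearest class, and 62.9% in the farthest. Within the 4 to 16 kb models the medians ran -0.10, 0.16, 0.27 and 0.66 in the same order of distance, over 689, 908, 432 and 90 models. Models of 16 to 64 kb showed no such order, with 0.43, 0.40, 0.58 and 0.47. Neither did the models of 300 to 500 bp, with 0.20, -0.05 and 0.70 in the 3 nearer classes, nor those of 64 kb and over, with 0.60, 0.80 and 0.69 in the 3 farther ones. Models of 1 to 4 kb alone on their scaffold had a median of -0.31 (73 models).

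In the other larvae, too, the farthest class of 1 to 4 kb models had the higher median. Among 1 to 4 kb models of L3 queens, the farthest class had a median of 0.65 (76 models) and the nearest -0.28 (1563 models). In L1 larvae these were 0.97 (90 models) and -0.29 (1581 models). In L5 workers they were 0.29 (64 models) and 0.04 (1586 models), and in L5 queens 0.46 (69 models) and 0.01 (1581 models). Each kind of larvae was fitted alone here, and the differences between kinds were not tested.

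At each level class between 1 and 256 FPKM in the queen input, models spanning 16 to 64 kb had a higher median than models of 1 to 4 kb. Among models at 16 to 64 FPKM in the queen input, the median was -0.29 at a span of 1 to 4 kb (1313 models), 0.05 at 4 to 16 kb (911 models), 0.61 at 16 to 64 kb (204 models) and 0.76 at 64 kb and over (38 models). Of those 38, 73.7% were higher and 15.8% lower in IP, against 31.5% and 49.4% of the models of 1 to 4 kb. Of all 169 tested models of 64 kb and over, 62.7% were higher and 8.28% lower. Their median exceeded that of all models by 0.64, and by 0.34 when no filter on low values was used. Short models were the most spread out: the quartiles of the 234 models under 300 bp were -0.71 and 1.35, and their median replicate SD was 0.26, against 0.11 for models of 1 to 4 kb.

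**Figure D3:**
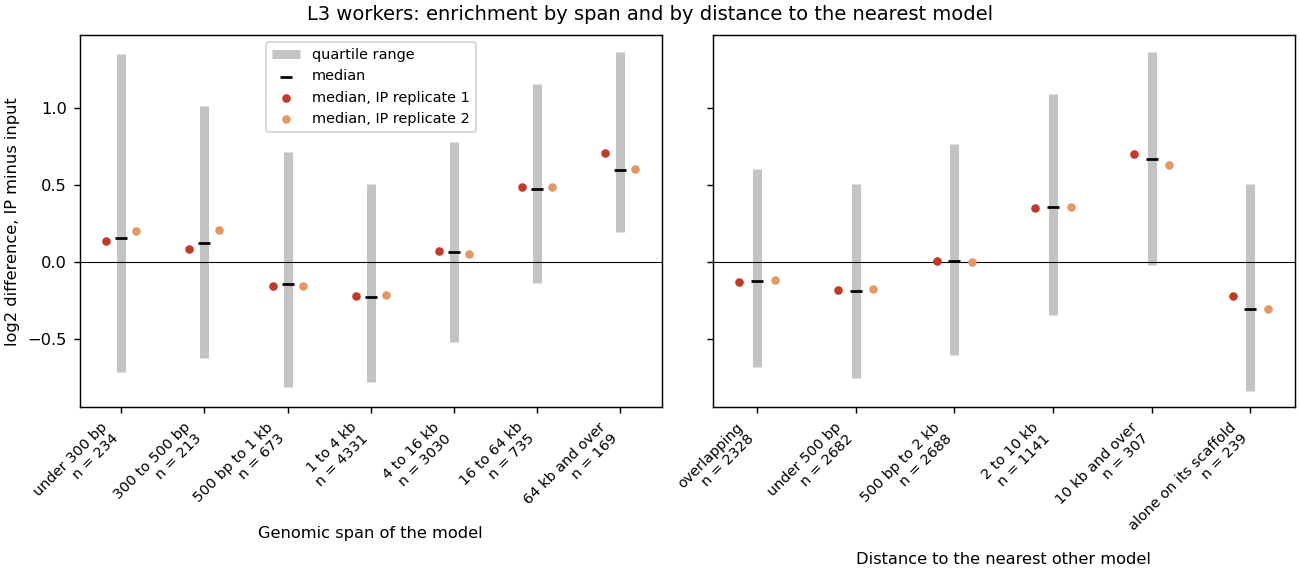
Median log2 difference between IP and input in L3 workers by genomic span of the model (left) and by distance to the nearest other model on the scaffold (right), with the number of models under each class. Black dashes are medians, grey bars the quartile range, and the 2 coloured points the medians of each IP library against the mean input. The medians reach 0.60 for spans of 64 kb and over and 0.67 for models 10 kb or more from their neighbours, and models alone on their scaffold have -0.30. With no filter the excess of the longest class over all models is 0.34 in place of 0.64.

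The models enriched at least 4-fold were set beside all tested models. Of these 570, 12.5% span 16 kb or more, against 9.63% of all tested models, and 20.7% span under 1 kb, against 11.9%. Their median span was 3.14 kb, against 3.31 kb over all tested models. Of the 570, 8.07% lay 10 kb or more from their nearest neighbour, against 3.27% of all tested models. Their median input level was 6.39 FPKM, with quartiles of 2.64 and 17.2 FPKM. The 570 were chosen by their difference and include models that passed the filter through IP alone, such as GB50849, with both inputs at 0. Short models also had a wider spread, with a median replicate SD of 0.26 under 300 bp against 0.11 at 1 to 4 kb. The part of either in these shares was not tested.

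Linkage groups and strands differed less than these classes. Between the 16 linkage groups the share of models higher in IP ran between 28.2% (linkage group 15, 504 models) and 43.1% (linkage group 13, 290 models), around the 35.6% of all tested models. It was 42.6% in linkage group 7 (413 models) and 28.2% on unplaced scaffolds (742 models). Plus-strand models were higher in 35.2% of cases and minus-strand models in 36%. Models that overlap another were higher in 32.7% of cases and those that do not in 36.6%.

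Neighbouring models on the same strand resembled each other weakly. Across pairs of adjacent tested models, Pearson's r of the log2 difference was 0.20 for 727 same-strand pairs under 500 bp apart, 0.17 for 1115 pairs at 500 bp to 2 kb and 0.11 for 847 pairs at 2 to 10 kb. For opposite strands it was 0.03 (768 pairs), 0.05 (1251 pairs) and 0.03 (681 pairs). Opposite-strand pairs that overlap, whose reads cannot be told apart, gave 0.18 (926 pairs). All points share the 4 libraries, and the values are given as a description.

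Runs of 4 or more adjacent models called in the same direction numbered 51 for higher and 97 for lower models. Of all tested models, 35.6% were called higher and 35.8% lower. How many runs these shares would give in a random order was not tested. The longest run lay on Group10.26 between 1859283 and 1897013, where 10 adjacent models, none overlapping another, were lower in IP by -0.37 to -1.29 log2 units. Their IP values ran between 0.396 and 68.4 FPKM, against 1.89 to 138 FPKM in input.

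The longest run of enriched models was on Group4.9 between 2128639 and 2176637. It holds 8 models, all on the minus strand and none overlapping, with log2 differences between 0.78 and 2.62. Their IP values ran between 7.75 and 48.4 FPKM, against 1.71 to 12.8 FPKM in input. The median of these 8 was 1.92 in L3 workers, 1.94 in L3 queens and 1.72 in L1 larvae, against 0.68 in L5 workers and 0.40 in L5 queens. A second enriched run, of 7 models on both strands, lay on Group10.26 between 1498202 and 1556356. It spanned 0.43 to 3.20 log2 units, with a median of 1.73. The median of these 7 was 1.13 in L3 queens and 1.90 in L1 larvae, against 0.26 in L5 workers and 0.19 in L5 queens. Differences between larvae were not tested for the runs.

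**Figure D4:**
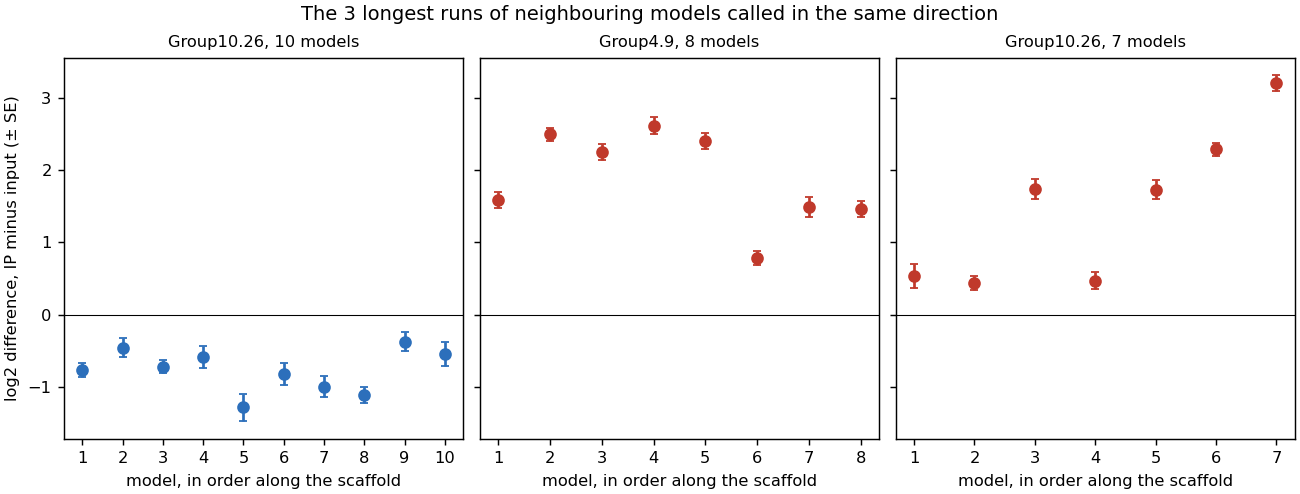
Log2 difference between IP and input in L3 workers for the 3 longest runs of adjacent models called in the same direction, in their order along the scaffold. Points are estimates and bars their standard errors (n = 2 and 2). All 10 models of the first run lie between -1.29 and -0.37, and the 8 and 7 models of the other runs between 0.43 and 3.20.

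The worker IP libraries were more like the IP libraries of other young larvae than like their own input. Across the 9385 models, scaled over all 20 libraries, the worker IP libraries correlated at 0.923 to 0.940 with L3 queen IP and at 0.866 to 0.877 with L1 IP. With the worker input the range was 0.825 to 0.842. The r with IP of L5 workers was 0.725 to 0.795 and with that of L5 queens 0.650 to 0.674. The worker input libraries correlated at 0.916 to 0.932 with L3 queen input and at 0.821 to 0.849 with the IP of L5 workers. The points are models and no p is given.

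Enrichment in L3 workers was closely matched by that of queens of the same instar and of L1 larvae. Fitted alone, each on its own 4 libraries, the log2 differences correlated at 0.970 with those of L3 queens and at 0.963 with those of L1 larvae (9243 models tested in both, each time). Of the models higher in workers and tested in both, 75.8% were higher in L3 queens, and these are 95.8% of the queen list. For the lower models the shares were 70.1% and 95.5%. Calls in opposite directions numbered 4. Against L1 larvae the shares were 71.4% and 96.7% for higher models and 67.9% and 95.8% for lower ones, with 4 opposite calls. L3 queens had 27.4% of their models higher and 25.7% lower, and L1 larvae 25.4% and 23.8%, against 35.6% and 35.8% in L3 workers. At an unadjusted p under 0.05 the shares were 74.3% in L3 workers, 60.5% in L3 queens and 57.5% in L1 larvae. Each of these shares rests on the spread of its own 4 libraries, so they do not show that more models are enriched in workers. With the spread pooled over the 12 L1 and L3 libraries, 2897 of 10167 models were higher in worker IP and 3353 lower (limma, adjusted p under 0.05). Pooled over all 20 libraries, 2406 of 10391 were higher and 2267 lower. Such counts are not given for L3 queens and L1 larvae.

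The 570 models enriched at least 4-fold in workers had a median of 2.52 there. Their median was 2.53 in L3 queens and 2.65 in L1 larvae, and all 566 and 567 of them that were tested had a positive difference. In L5 workers the median was 1.05, with 514 of 528 positive, and in L5 queens it was 0.49, with 461 of 510 positive. The medians over all models tested in both were between -0.01 and 0.07 in these 4 kinds of larvae. The fits of the L5 libraries alone called 0 models in either caste (limma), with 1855 of 9983 models in workers (18.6%) and 748 of 10164 in queens (7.36%) at an unadjusted p under 0.05, so no overlap of calls could be given. The r of the log2 differences with those of L3 workers was 0.611 for L5 workers (8916 models) and 0.390 for L5 queens (8826 models).

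The difference in enrichment was tested in 1 fit of the 12 libraries of the L1 and L3 stages, over 10167 models. Against L3 queens, 7 models (0.0689%) passed an adjusted p under 0.05 (limma), 3 higher (0.0295%) and 4 lower (0.0393%) in workers, and 310 had an unadjusted p under 0.05 (3.05%). Against L1 larvae, 13 models (0.128%) passed, 7 higher (0.0689%) and 6 lower (0.059%) in workers, and 385 had an unadjusted p under 0.05 (3.79%). The comparisons share the worker libraries, and 5 models passed in both. The counts moved with the settings. Without any scaling of the deposited FPKM, 2 models passed against queens, 1 higher and 1 lower, and 10 against L1, 7 higher and 3 lower. With all 20 libraries in the fit 0 passed against queens (limma, 100 at an unadjusted p under 0.05) and 2 against L1. With no filter the counts were 45 and 22, and with the replicate number as a block 11 and 59. Against queens the count was 3 without worker input replicate 1, queen IP replicate 2 or queen input replicate 2. Against L1 larvae it was 5 without either worker IP library, 2 without worker input replicate 1, 8 without L1 IP replicate 2 and 2 without L1 input replicate 2.

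Several of these calls rest on values listed at 0. A group of 2 libraries was listed at 0 in 4 of the 7 models and in 5 of the 13. The 3 models higher than in queens, all also higher than in L1 larvae, were listed at 0 in both worker inputs. One is GB50849 (Group2.11, 1575238 to 1576521, plus strand), with 20.4 and 19.0 FPKM in worker IP. In queens it had 48.2 and 29.9 FPKM in IP and 10.8 and 7.19 FPKM in input, and in L1 larvae 62.3 and 47.4 FPKM in IP and 16.3 and 12.8 FPKM in input. GB44335 (Group7.22, 216848 to 219497, plus strand) had 7.54 and 12.1 FPKM in worker IP, with 31.2 and 25.9 FPKM in queen IP and 13.2 and 14.1 FPKM in queen input. GB50446 lies on Group4.9 between 13135 and 13316, plus strand. Its values were 29.2 and 29.2 FPKM in worker IP, with 66.9 and 46.3 FPKM in L1 IP and 9.51 and 8.35 FPKM in L1 input. In these 3 models the worker IP values are the lowest of the 3 kinds of larvae, and their own inputs are at 0. No fold is given for them. The calls against queens passed under 14 of 18 alternatives for GB50849 and 12 of 18 for GB44335, with limma adjusted p up to 1 in both. Against L1 larvae GB50849 passed under 13 of 18 and GB50446 under 18 of 18. The worker input of GB50446 was at 0 in all 18, so they cannot show what its call owes to these 0 values. When every model listed at 0 in any of the 12 libraries was left out, an alternative chosen after seeing the data, 2 models passed against queens and 4 against L1 larvae.

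The most negative differences from queens were those of GB53813 and GB41328. GB53813 (Group3.12, 217996 to 218377, minus strand) was listed at 0 in all 4 worker libraries and both queen inputs, with 8.30 and 4.39 FPKM in queen IP, so its call says nothing of workers beyond these 0 values. It passed under 8 of 13 alternatives. GB41328 (Group5.18, 65181 to 65384, plus strand) had 0.414 and 0.935 FPKM in worker IP and 3.22 and 2.78 FPKM in worker input, against 4.85 and 3.72 FPKM in queen IP and 1.91 and 2.54 FPKM in queen input. IP was below input in the worker libraries and above it in the queen libraries, without overlap. In L1 larvae IP was also below input, with 2.60 and 1.78 FPKM in IP and 3.76 and 3.83 FPKM in input. The difference of workers from queens was -2.27 ± 0.29 log2 units (SE, limma adjusted p = 0.0395), and it passed under 5 of 18 alternatives, with adjusted p between 0.0242 and 1.

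The most negative differences from L1 larvae were those of GB54979 and GB55717. GB54979, listed at 0 in worker IP, had 7.27 and 3.10 FPKM in L1 IP and 33.1 and 18.7 FPKM in L1 input (limma adjusted p = 0.0233), and its call passed under 9 of 17 alternatives. GB55717 lies on Group6.38 between 701641 and 702345, plus strand. It had 131 and 136 FPKM in worker IP and 280 and 258 FPKM in worker input. L1 larvae had 150 and 124 FPKM in IP and 41.6 and 38.5 FPKM in input. The IP values of the 2 kinds of larvae overlap, and the worker input values are far above those of L1 larvae. The difference in enrichment was -3.08 ± 0.13 log2 units (SE, limma adjusted p = 1.39e-05), and it passed under all 19 alternatives, with adjusted p between 7.18e-06 and 8.80e-04.

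In input, L3 queens lay between L3 workers and L1 larvae for GB55717, with 115 and 102 FPKM in IP and 91.5 and 86.8 FPKM in input, and the difference of workers from queens was -1.45 ± 0.13 (SE, limma adjusted p = 0.00571). L5 workers had 743 and 824 FPKM in IP and 2031 and 2719 FPKM in input, and L5 queens 460 and 501 FPKM in IP and 2505 and 3047 FPKM in input. Within L3 workers alone its log2 difference was -0.71 (limma adjusted p = 7.81e-04), against 0.73 in L3 queens and 2.35 in L1 larvae, each fitted alone. The libraries are of larvae and not of 1 cell type, so more cells of a type and more RNA per cell cannot be told apart. The adjacent model GB55716 (Group6.38, 701037 to 701490, plus strand), named after its values were seen, was also lower than in L1 larvae, by -2.05 ± 0.23 log2 units (SE, limma adjusted p = 0.0187). It had 29.5 and 27.7 FPKM in worker IP and 47.0 and 38.2 FPKM in worker input, against 69.4 and 45.5 FPKM in L1 IP and 27.8 and 21.4 FPKM in L1 input. Against queens its difference was -1.62 ± 0.23 (SE, limma adjusted p = 0.0677).

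**Figure D5:**
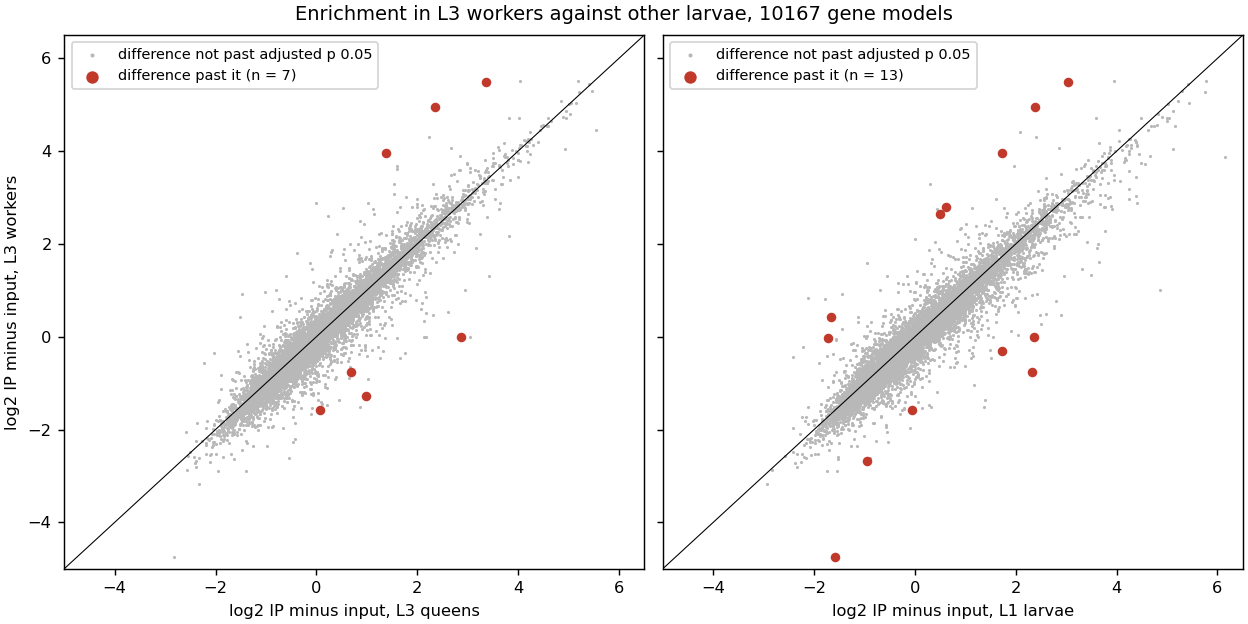
Log2 difference between IP and input in L3 workers (y axis) against that in L3 queens (left, x axis) and L1 larvae (right, x axis) for 10167 models in 1 fit of 12 libraries. Grey models did not pass an adjusted p of 0.05 for the difference between the kinds of larvae, red ones did, 7 on the left and 13 on the right, and the line marks equal values. Models beyond the fixed axis limits are not seen, such as GB40846 on the right, with 7.69 in L1 larvae and 5.04 in L3 workers. Its difference did not pass.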

How the data were processed

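Per the labels' protocols, poly(A) RNA of larvae was fragmented, part was bound by an m6A antibody, and IP and input libraries were made with a kit that does not mark strand. The deposited FPKM values, 1 per model and library, were computed by the authors, per the file headers. The submitters' processing notes name HISAT2 2.1.0, while no source used here gives the program behind the FPKM, the genome build or the annotation. Low values share no common step, so whole reads could not be recovered and depth is unknown.

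Each library's FPKM were scaled by its median-of-ratios factor, taken over models that exceed 1 FPKM throughout the fit (8229 models for the 4 worker libraries, 7916 for 12). Models with a mean of at least 1 were kept. Log2(FPKM + 1) was fitted in limma 3.58.1 (R 4.3.3, eBayes with trend), IP minus input, 2 against 2, with 2 residual degrees of freedom. A log2 difference on this scale understates changes of low models. Differences between larvae came from 1 fit of 12 libraries. Benjamini-Hochberg adjustment ran over all models of a fit. An exact two-sided permutation test of 2 against 2 cannot go below 0.333, so library measures are given untested. The fits were tested on simulated data. Figures used matplotlib 3.10.9.

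Since no names matched, the rule for named models took the 2 highest and 2 lowest log2 differences past the threshold in each comparison, for IP against input only where the groups did not overlap. GB43330, GB55716 and GB40846 lie outside this rule and were named for their values, GB40846 only because it falls beyond the axis of a figure. Of the runs of neighbours only the longest are given. Distance to the nearest model was added after seeing the data. The members and lists were chosen with earlier results of these data known.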

Additional observations from a re-analysis of the deposited data

Results flagged for a closer look

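In each of these models the difference in enrichment between L3 workers and other larvae passed the test of that difference in the fit of 12 libraries (limma, adjusted over 10167 models). Against L3 queens these are GB50849, GB44335 and GB53813, each with an adjusted p of 0.00992, and GB41328 with 0.0395. Against L1 larvae these are GB50849 with an adjusted p of 0.0163, GB50446 with 0.000875, GB54979 with 0.0233 and GB55717 with 1.39e-05. Most of these calls were lost under some alternative settings. Against queens GB50849 passed under 14 of 18, GB44335 under 12 of 18, GB53813 under 8 of 13 and GB41328 under 5 of 18. Against L1 larvae GB50849 passed under 13 of 18 and GB54979 under 9 of 17, while GB50446 passed under all 18 and GB55717 under all 19. The worker input of GB50446 was at 0 in all 18, and it dropped out where models listed at 0 were left out. In 5 of these 7 models a group of worker libraries was listed at 0. The part of these 0 values in the calls was not tested beyond leaving such models out. GB55717 and GB41328 were above 0 in every library of the 12. Groups of 2 libraries are too small to look for single libraries that stand apart.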

How the results depend on the processing

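The counts for IP against input of L3 workers (3343 higher, 3364 lower, 1781 and 1191 at 2-fold or more) stayed within 1.5 times in every alternative but 3. These were 2133 lower with a mean FPKM of at least 5, which tests 5763 models, and 1936 and 2197 lower at 2-fold or more with FPKM as deposited and with upper-quartile scaling, which move the median of all models. Leaving out each library gave 2966 to 3106 higher, 2842 to 3043 lower, and 1729 to 1849 and 1146 to 1295 at 2-fold or more. The named models kept their calls for IP against input in all alternatives in which they were tested.

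The IP and input libraries of 1 number share only that number by the labels; their deviations from the group means correlated at 0.209 across models. With the replicate block 3497 models were higher and 3554 lower, and the counts of differences between larvae were 11 against L3 queens and 59 against L1 larvae. Against queens (7) the count was 45 with no filter, 4 with a mean of at least 5, 2 with FPKM as deposited, 2 without models listed at 0, 3 with the 8 L3 libraries and 0 with all 20 libraries in limma (100 at an unadjusted p under 0.05), and 3 to 9 leaving out each library. Against L1 larvae (13) it was 22 with no filter, 6 with a mean of at least 5, 4 without models listed at 0, 5 with 8 libraries, 2 with all 20 libraries and 2 to 11 leaving out each library. With FPKM as deposited 7 were higher and 3 lower. The cause was not tested.

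The class medians listed here, relative to the median of all models, kept their sign in every alternative run. The classes by distance to the nearest model were not run under these alternatives. For spans of 64 kb and over (0.64) they were 0.84 with a pseudocount of 0.1, 0.34 with no filter, 0.72 without overlapping models and 0.72 with replicate number 1 alone. For 1 to 4 kb (-0.19) they were -0.22 with a pseudocount of 0.1, -0.12 with no filter, -0.18 with FPKM as deposited, and -0.18 and -0.19 with replicate numbers 1 and 2 alone. For 256 FPKM and over (-0.72) the value was -0.57 by the level of queen input, an alternative added after seeing the data. For overlapping models (-0.0853) they were -0.0992 with a pseudocount of 0.1, -0.0688 with no filter, -0.0802 with FPKM as deposited, and -0.0802 and -0.0798 with replicate numbers 1 and 2 alone. For unplaced scaffolds (-0.21) they were -0.27 with a pseudocount of 0.1, -0.0873 with no filter, -0.19 with FPKM as deposited, -0.23 without overlapping models and -0.23 with replicate number 1 alone. Of the values of single models under these alternatives, 171 kept their direction and side of the threshold and 41 lost the call, all of them for differences between larvae.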

Other observations

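Of the 9385 tested models of L3 workers, 145 were listed at 0 in at least 1 of the 4 libraries. Both inputs were listed at 0, and both IP values above 0, in 206 of all 15314 models. Of these 26 were tested, and all 26 were called higher in IP. The mirror case, both IP libraries at 0 and both inputs above 0, occurred in 140 models, of which 5 were tested and all 5 called lower. These models passed the filter through 1 group alone, so their calls do not support a direction. In 5 models both worker inputs were listed at 0 while both worker IP libraries and all 4 inputs of L3 queens and L1 larvae were above 1 FPKM. They include GB50849, GB44335 and GB50446.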
